A study of Homo sapiens with 14 samples.

Results

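The numbered zinc finger genes of 19q13.2-q13.3 were taken as all features of the deposited table whose symbol is ZNF followed by a number (with an optional final letter), on chromosome 19, and whose start lies between 39.0 and 50.5 Mb in hg38. They numbered 32 of 35805 features in all. The choice used names and positions and no measured value. RNA-seq was done in K562, a human erythroleukaemia cell line that carried dCas9-KRAB (a catalytically dead Cas9 joined to a repressor domain) in all groups, 7 days after a guide RNA was introduced. The guides targeted TASOR, TASOR2, MPP8 (gene MPHOSPH8) or PPHLN1 (the gene of Periphilin). The controls were cells with a guide to the AAVS1 safe-harbour locus, called sgAAVS1 here, and cells with no guide, called untransduced. The labels list 14 libraries, namely 2 untransduced, 3 sgAAVS1, 2 TASOR, 3 TASOR2, 2 MPP8 and 2 PPHLN1 libraries, and knockdown libraries of a group carry different guides.

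The table holds 1 mean per group as log2 RPM (reads scaled to library depth), so the spread between libraries could not be computed and no p-value is given. The steps between low values were those of a mean of 3 libraries in sgAAVS1 and of 2 libraries in each other group, TASOR2 included. Depth read from these steps was 5857954 to 7406988 reads per library. The ± after a difference is the half-width of its 95% Poisson counting interval, which covers counting error only and no variation between cultures or guides. The call of a gene as higher or lower required that its log2 difference be at least 1 (2-fold), the higher mean be above 0 and the interval leave out 0. All 4 knockdown comparisons used the same sgAAVS1 mean. In bulk RNA, fewer cells of a type and less RNA per cell cannot be told apart.

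The HUSH complex, made of TASOR, MPP8 and Periphilin, binds chromatin with the repressive mark H3K9me3 and silences transposons and other intron-poor DNA. HUSH2 holds TASOR2 in the place of TASOR. Most zinc finger genes of chromosome 19 encode KRAB zinc finger proteins, which bind DNA through arrays of fingers and recruit the corepressor TRIM28 and the H3K9 methyltransferase SETDB1. These genes arose by tandem duplication, and their clusters are themselves known to carry H3K9me3.

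The targeted gene kept 6.56% of its sgAAVS1 level in the TASOR group (listed as FAM208A), 37.5% in the TASOR2 group (FAM208B), 28.2% in the MPP8 group and 40.8% in the PPHLN1 group. All 10 K562 markers, globins and erythroid factors among them, had means above 0 in every group. Among markers of other cell types, KRT8, EPCAM and COL1A1 also had means above 0, while MS4A1, CD8A, PAX2, NEFL and SOX2 had no reads in any group. None of the markers named here was called in any knockdown.

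The members did not act as 1 block. Those called higher all lay in 1 run of 20 zinc finger genes from ZNF283 to ZNF180 (chr19:43827292-44500524, 673233 bases). In this run neighbouring starts are at most 200 kb apart, a distance chosen with the values known. A distance of 1 Mb, set in the plan, gave a group of 24 members from ZNF575 to ZNF296, which adds only uncalled genes. Shares and medians of the run thus rest on a choice that favoured them. In the run from ZNF283 to ZNF180, 12 genes, among them ZNF112, ZNF229 and ZNF284, were called higher in the MPP8 and PPHLN1 groups. Their differences from sgAAVS1 were 1.04 to 2.46 and 1.20 to 3.15 on the log2 scale. Of all tested genes, 1.57% and 2.76% were called higher in these groups. Both upper ends are those of ZNF233. ZNF233 and ZNF285, each among the 12, had control means below 0 and passed the low-value filter only through knockdown groups. Of the same 12 genes, 7 were higher in the TASOR2 group (background 2.13%) and none was called in the TASOR group (background 1.86%). No member of the 11 tested outside the run was called in any of these comparisons, and no member was called lower. The backgrounds of genes called lower were 0.31% in TASOR, 1.98% in TASOR2, 0.268% in MPP8, 0.596% in PPHLN1 and 0.219% in untransduced cells against sgAAVS1.

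**Figure D1:**
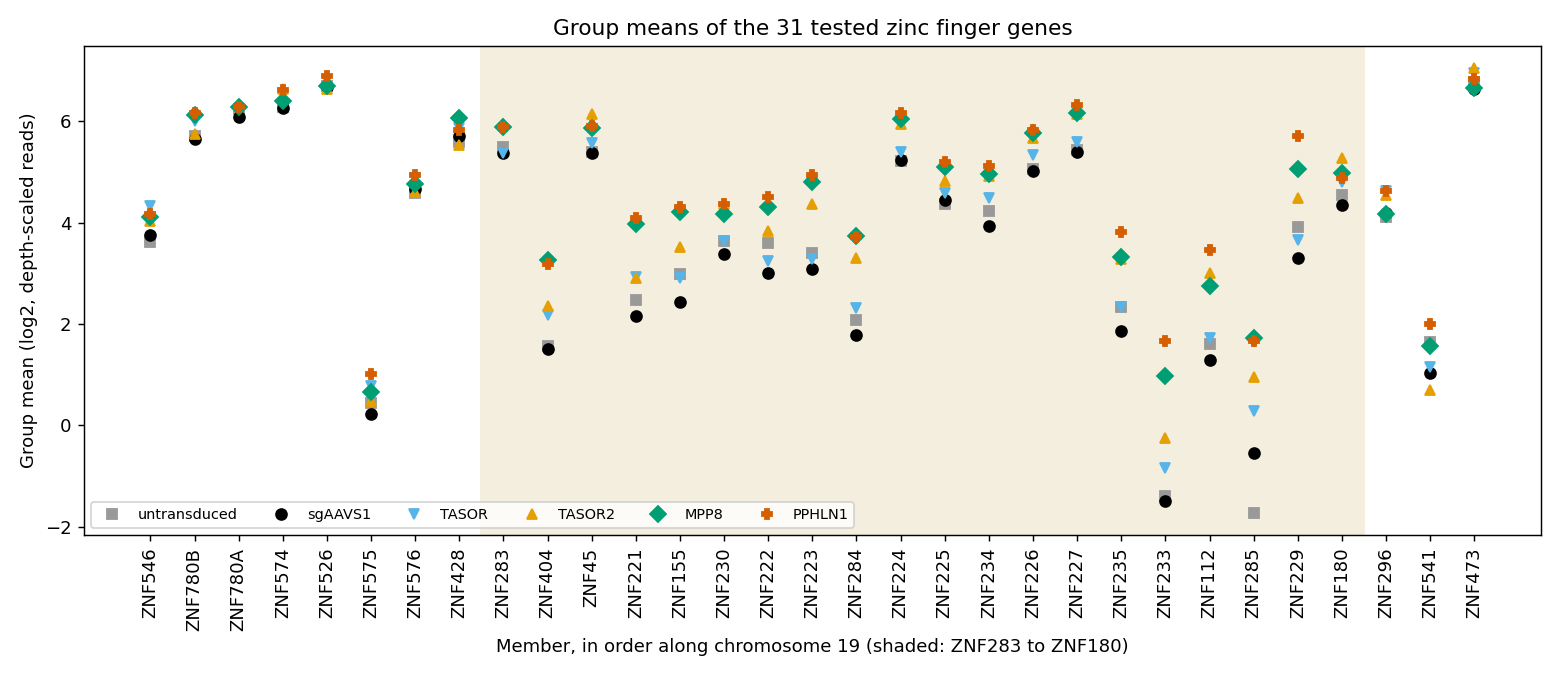
Group means in log2 RPM for the 31 tested members, ordered along chromosome 19, with 1 symbol per group. Between ZNF283 and ZNF180 the MPP8, PPHLN1 and TASOR2 symbols lie above both controls for all 20 genes.

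The upstream sequences of 4 genes of the run are shown as examples. No gene called in MPP8 and PPHLN1 but not in TASOR2 is among them. ZNF45 was called in no comparison with sgAAVS1, ZNF284 and ZNF112 were called in TASOR2, MPP8 and PPHLN1, and ZNF229 had the second largest PPHLN1 difference. Each is the 250 bases before the RefSeq start in GRCh38.p14, read 5′ to 3′ on the gene's strand. ZNF45 lies at chr19:43935283-43935532 (minus), ZNF284 at chr19:44071909-44072158 (plus), ZNF112 at chr19:44367218-44367467 (minus) and ZNF229 at chr19:44448579-44448828 (minus). Capitals mark matches, on either strand, to 5 searched motifs. The GC box was searched as GGGCGG. The CCAAT box was searched by its letters, and the core promoter element as TATAAA. An ETS-type site was searched as CCGGAAGT and the cyclic AMP response element as TGACGTCA.
ZNF45: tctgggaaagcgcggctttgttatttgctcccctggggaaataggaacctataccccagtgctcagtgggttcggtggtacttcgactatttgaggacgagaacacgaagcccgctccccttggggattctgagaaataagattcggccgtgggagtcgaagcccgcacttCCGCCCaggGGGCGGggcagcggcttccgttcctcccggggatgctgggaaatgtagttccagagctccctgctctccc
ZNF284: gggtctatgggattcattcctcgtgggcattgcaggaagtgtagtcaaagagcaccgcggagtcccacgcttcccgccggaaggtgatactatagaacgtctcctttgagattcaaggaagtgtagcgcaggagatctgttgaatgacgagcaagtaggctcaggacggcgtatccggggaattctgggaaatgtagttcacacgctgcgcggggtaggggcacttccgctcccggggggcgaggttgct
ZNF112: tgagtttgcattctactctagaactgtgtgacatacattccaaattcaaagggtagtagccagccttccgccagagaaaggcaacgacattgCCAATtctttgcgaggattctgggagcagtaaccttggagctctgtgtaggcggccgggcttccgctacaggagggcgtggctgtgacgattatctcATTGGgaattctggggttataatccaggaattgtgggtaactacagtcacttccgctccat
ZNF229: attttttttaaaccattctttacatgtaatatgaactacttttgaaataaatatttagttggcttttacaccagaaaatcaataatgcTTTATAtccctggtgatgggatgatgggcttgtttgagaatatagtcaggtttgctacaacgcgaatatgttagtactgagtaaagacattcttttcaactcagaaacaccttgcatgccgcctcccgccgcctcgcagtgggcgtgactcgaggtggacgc
ZNF45 had 2 GC boxes on opposite strands, ZNF112 had 2 CCAAT matches, ZNF229 had 1 TATAAA match on the opposite strand and ZNF284 had none of the 5 motifs. The 250 bases held 16 CpG dinucleotides in ZNF45, 18 in ZNF284, 9 in ZNF112 and 9 in ZNF229.

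Over the 26 members with a RefSeq window (250 bases before to 50 after the start), GGGCGG was found in 10, or 38.5%, against 45.0% of all 35116 windows. It was in 0 of 8 called genes of the run with a window, in 5 of 8 uncalled genes of the run and in 5 of 10 members outside it. The called genes ZNF155, ZNF221, ZNF223 and ZNF233 had no window, while every uncalled gene of the run had a window. The called set is therefore incomplete here. CCGGAAGT was in 6 of 26 members (23.1%), against 4.14% of all windows, with 1 among the called genes and 4 among the uncalled genes of the run. CCAAT was in 7 members (26.9%, against 34.6%), TATAAA in ZNF229 alone (3.85%, against 11.5%) and TGACGTCA in none (1.85% of all windows). The median number of CpG per window was 14.5 in the called genes, 19 in the uncalled genes of the run, 23.5 in the members outside it and 14 over all windows. In 20 of the 26 members the RefSeq start lay within 1000 bases of the gene's 5′ end in the deposited table. That of ZNF404, a called gene, lay 17421 bases away. Each member had 1 window, the nearest to that end, while the 35116 windows were not reduced to 1 per gene. These are letters in a window and no measure of binding.

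In the TASOR group, 0 of 31 tested members were called higher, against a background of 1.86% of 16433 tested genes. The median member difference was 0.31, against 0.16 over all tested genes. In the TASOR2 group, 7 of 31 members were called higher, against a background of 2.13%, with a median of 0.75 against 0.07. In the MPP8 group, 12 of 31 were called higher, against a background of 1.57%, with a median of 0.75 against 0.12. In the PPHLN1 group, 12 of 31 were called higher, against a background of 2.76%, with a median of 0.93 against 0.17. The comparison of the controls, untransduced minus sgAAVS1, called 0 of 31 members higher, against a background of 1.31%, with a median of 0.12 against 0.05. The share of members called higher was thus 22.6% in TASOR2, 38.7% in MPP8 and 38.7% in PPHLN1, each above its background. It was 0% in TASOR and between the controls. With 31 genes, 0% cannot be told from the backgrounds of 1.86% and 1.31%.

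Within the run the medians were 0.39 in TASOR, 0.96 in TASOR2, 1.38 in MPP8, 1.60 in PPHLN1 and 0.23 in untransduced cells. Called genes made up 0% of its 20 genes in TASOR, 35% in TASOR2, 60% in MPP8 and 60% in PPHLN1. Outside the run the medians of the 11 tested members were 0.26, 0.23, 0.19, 0.36 and 0.02 in the same order. All 20 genes of the run had TASOR2, MPP8 and PPHLN1 means above both controls, as had 5 of the 11 tested members outside it. PPHLN1 was the group with the highest mean in 13 genes of the run, TASOR2 in 4 and MPP8 in 3. The lowest mean was that of sgAAVS1 in 17 of them and of untransduced cells in the other 3. Over all 16433 tested genes, 9706 had means above sgAAVS1 in TASOR2, 13685 in MPP8 and 14337 in PPHLN1. Above untransduced cells there were 9067, 10481 and 12197. The share of all genes with the 3 groups above both controls, or with these highest and lowest groups, was not computed.

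**Figure D2:**
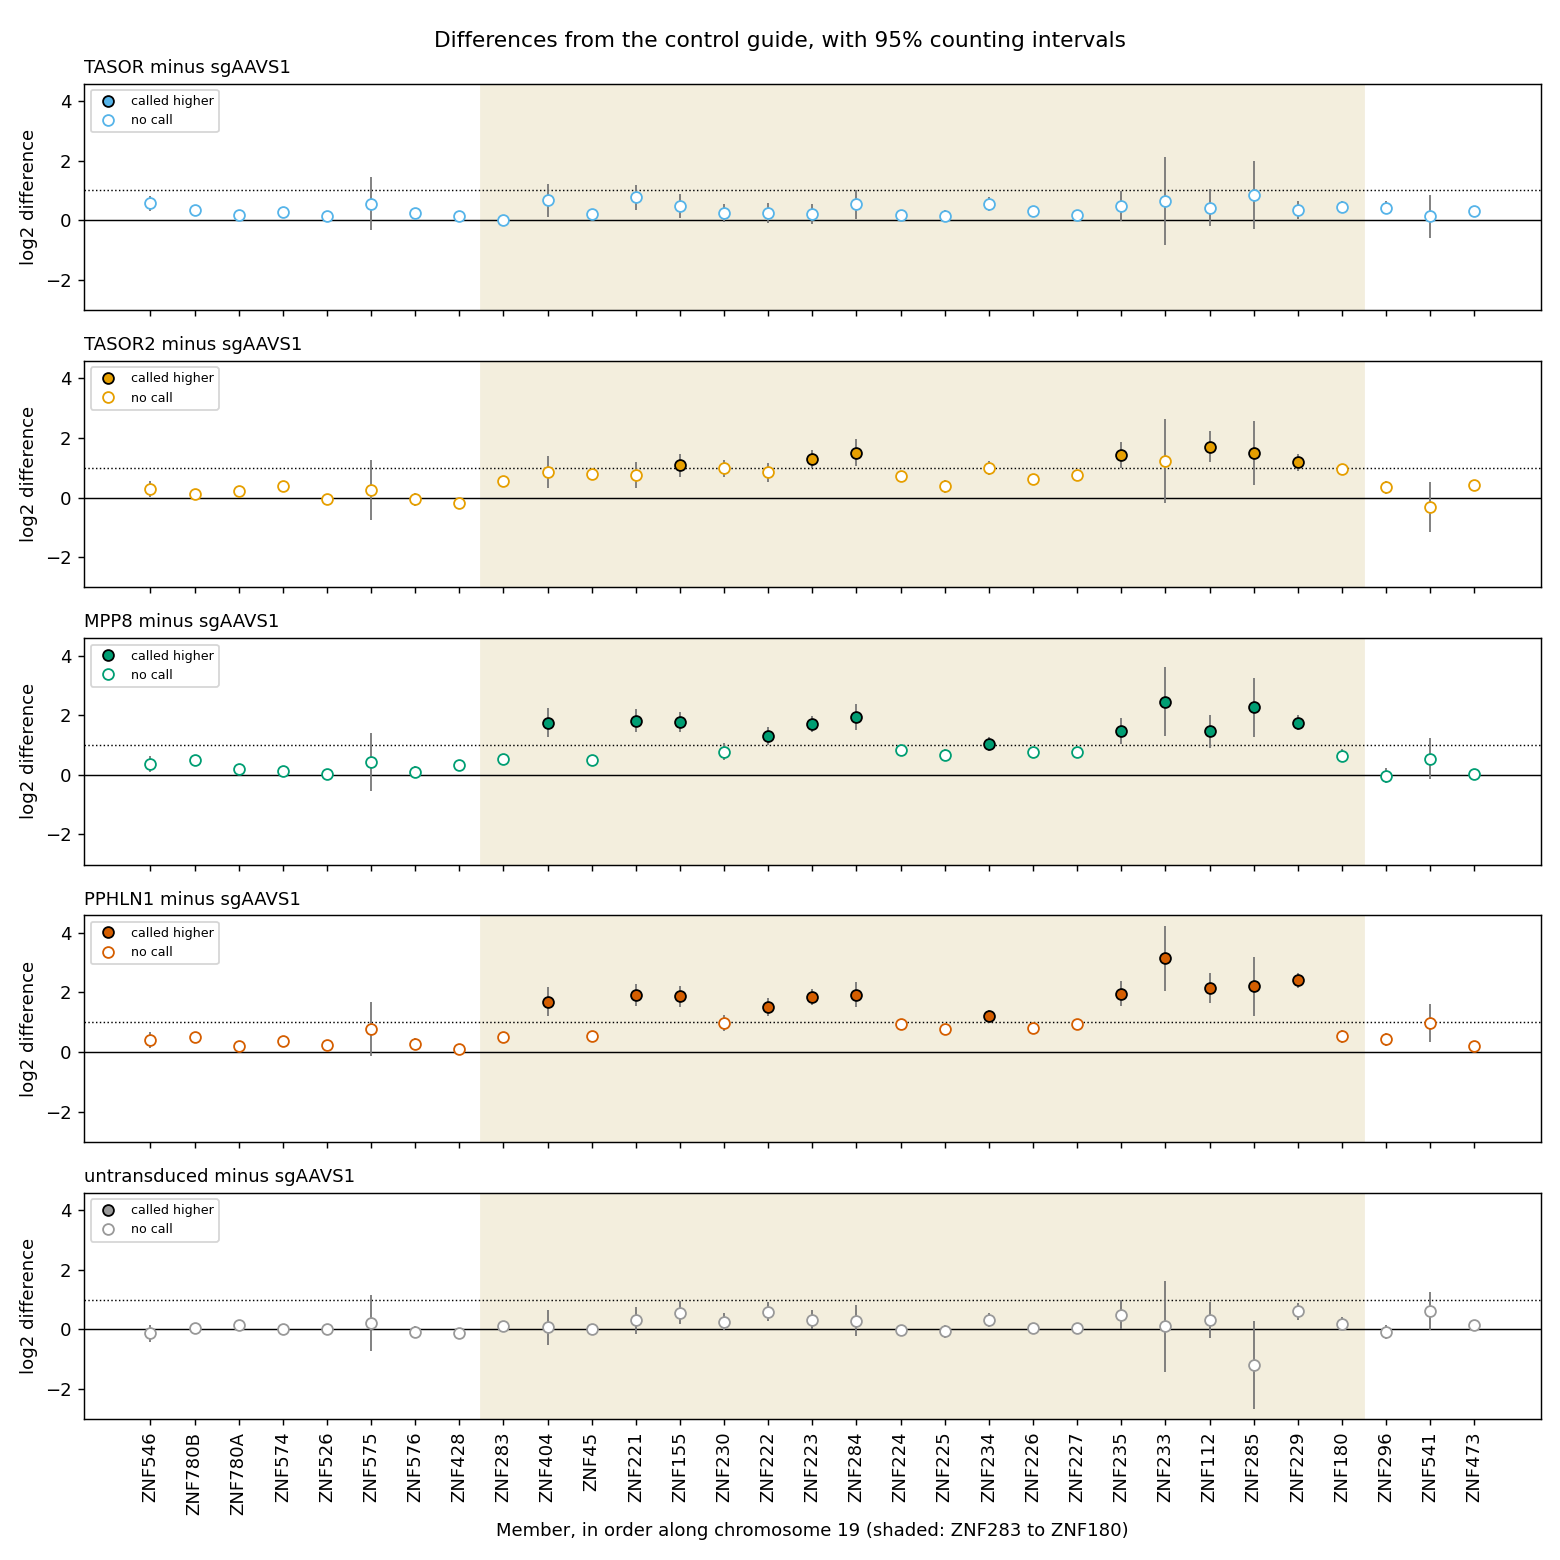
Log2 difference from sgAAVS1 for each tested member along chromosome 19, 1 panel per knockdown and 1 for untransduced cells, with 95% counting intervals and called genes marked. The marked genes lie between ZNF283 and ZNF180, with 0 marked in TASOR, 7 in TASOR2, 12 in MPP8 and 12 in PPHLN1.

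ZNF233 had the largest differences from sgAAVS1 among members in MPP8 and PPHLN1. The mean of ZNF233 was -1.39 in untransduced cells, -1.49 in sgAAVS1, -0.84 in TASOR, -0.26 in TASOR2, 0.97 in MPP8 and 1.66 in PPHLN1. Both controls lay below every knockdown, and MPP8 and PPHLN1 stood apart from the rest. Only these groups had means above 0, so ZNF233 was tested because of the groups in which it was then called, and its call is a description of a gene that the low-value filter favoured. Its difference from sgAAVS1 was 2.46 ± 1.16 in MPP8, a 5.50-fold level, and 3.15 ± 1.09 in PPHLN1, an 8.89-fold level. In TASOR2 it was 1.23 ± 1.40, which was not called, and in TASOR 0.65 ± 1.47. The wide intervals reflect few reads, and ZNF233 lies inside the opposite strand of ZNF235, so reads of these genes may be hard to assign if counting ignored strand, a setting not given in the sources used here.

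ZNF285 had means of -1.73 in untransduced cells, -0.54 in sgAAVS1, 0.29 in TASOR, 0.96 in TASOR2, 1.72 in MPP8 and 1.67 in PPHLN1. Both controls lay below 0, so ZNF285 too was tested through knockdown groups in which it is high. Untransduced minus sgAAVS1 was -1.18 ± 1.48. Its difference from sgAAVS1 was 0.83 ± 1.14 in TASOR, 1.5 ± 1.07 in TASOR2, 2.26 ± 0.98 in MPP8 and 2.21 ± 0.99 in PPHLN1, called in the last 3. ZNF285 was the 1 member called in the TASOR group against untransduced cells, with a difference of 2.02 ± 1.41. Against that control its MPP8 (3.45 ± 1.29) and PPHLN1 (3.40 ± 1.29) differences were larger than those of ZNF233 (2.36 ± 1.34 and 3.05 ± 1.28).

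At the distal end of the run, ZNF229 had means of 3.91 in untransduced cells, 3.30 in sgAAVS1, 3.66 in TASOR, 4.48 in TASOR2, 5.05 in MPP8 and 5.70 in PPHLN1. The order of the groups was sgAAVS1, TASOR, untransduced, TASOR2, MPP8 and PPHLN1. Its differences from sgAAVS1 were 0.36 ± 0.30 in TASOR, 1.18 ± 0.27 in TASOR2, 1.75 ± 0.25 in MPP8 and 2.41 ± 0.24 in PPHLN1, the last a 5.30-fold level. The TASOR mean lay below the untransduced one, and against untransduced cells the TASOR2 difference was 0.56 and not called.

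ZNF112 had means of 1.61 in untransduced cells, 1.30 in sgAAVS1, 1.72 in TASOR, 3.01 in TASOR2, 2.75 in MPP8 and 3.45 in PPHLN1. TASOR lay close to the controls and the other 3 knockdowns above them, with TASOR2 above MPP8. The differences were 0.43 ± 0.61 in TASOR, 1.71 ± 0.52 in TASOR2, 1.45 ± 0.54 in MPP8 and 2.16 ± 0.50 in PPHLN1, the last a 4.46-fold level. The TASOR2 difference of ZNF112 was the largest among the 31 tested members.

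ZNF284 had means of 2.08 in untransduced cells, 1.78 in sgAAVS1, 2.31 in TASOR, 3.29 in TASOR2, 3.73 in MPP8 and 3.71 in PPHLN1. MPP8 and PPHLN1 were alike and highest, and TASOR2 lay between them and TASOR. The differences from sgAAVS1 were 0.53 ± 0.50, 1.51 ± 0.45, 1.94 ± 0.43 and 1.93 ± 0.43 in TASOR, TASOR2, MPP8 and PPHLN1. ZNF284 overlaps ZNF223 on the same strand, and ZNF223 overlaps ZNF222, so the split of reads among these 3 genes is uncertain.

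ZNF223 had means of 3.41 in untransduced cells, 3.08 in sgAAVS1, 3.29 in TASOR, 4.37 in TASOR2, 4.79 in MPP8 and 4.94 in PPHLN1. The TASOR mean lay between the controls. The differences were 0.21 ± 0.33 in TASOR, 1.29 ± 0.29 in TASOR2, 1.71 ± 0.28 in MPP8 and 1.86 ± 0.27 in PPHLN1. ZNF222 had means of 3.59, 3.0, 3.25, 3.84, 4.31 and 4.51 in the order untransduced, sgAAVS1, TASOR, TASOR2, MPP8 and PPHLN1. It was called in MPP8 (1.31 ± 0.30) and PPHLN1 (1.51 ± 0.29) and not in TASOR2 (0.84 ± 0.32). Its untransduced mean lay above the TASOR mean, and against untransduced cells its differences of 0.71 in MPP8 and 0.92 in PPHLN1 were not called.

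ZNF235 had means of 2.34 in untransduced cells, 1.85 in sgAAVS1, 2.32 in TASOR, 3.28 in TASOR2, 3.33 in MPP8 and 3.80 in PPHLN1. TASOR lay at the untransduced level, and the other 3 knockdowns lay above both controls. The differences from sgAAVS1 were 0.47 ± 0.49 in TASOR, 1.42 ± 0.44 in TASOR2, 1.47 ± 0.44 in MPP8 and 1.95 ± 0.42 in PPHLN1. Against untransduced cells the TASOR2 (0.94) and MPP8 (0.99) differences were not called.

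ZNF155 had means of 2.99 in untransduced cells, 2.43 in sgAAVS1, 2.90 in TASOR, 3.51 in TASOR2, 4.20 in MPP8 and 4.30 in PPHLN1. The controls were 0.56 apart, and TASOR lay between them. Its differences from sgAAVS1 were 0.46 ± 0.40 in TASOR, 1.08 ± 0.38 in TASOR2, 1.77 ± 0.35 in MPP8 and 1.87 ± 0.34 in PPHLN1. The TASOR2 call was lost against untransduced cells (0.52), with each group centred on its median (0.99) and with the trend over GC content removed (0.998).

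ZNF221 had means of 2.46 in untransduced cells, 2.16 in sgAAVS1, 2.93 in TASOR, 2.90 in TASOR2, 3.97 in MPP8 and 4.08 in PPHLN1. TASOR and TASOR2 were level and MPP8 and PPHLN1 higher, with differences from sgAAVS1 of 0.77 ± 0.42, 0.75 ± 0.44, 1.82 ± 0.38 and 1.93 ± 0.37 in that order. ZNF404 had means of 1.57, 1.5, 2.17, 2.36, 3.25 and 3.19 in untransduced, sgAAVS1, TASOR, TASOR2, MPP8 and PPHLN1. The controls were level, and the differences from sgAAVS1 were 0.67 ± 0.54 in TASOR, 0.86 ± 0.55 in TASOR2, 1.75 ± 0.48 in MPP8 and 1.69 ± 0.49 in PPHLN1.

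ZNF234 was the called gene nearest to the limit of 1. Its means were 4.23 in untransduced cells, 3.93 in sgAAVS1, 4.48 in TASOR, 4.92 in TASOR2, 4.96 in MPP8 and 5.12 in PPHLN1. All 4 knockdowns lay above both controls. The differences from sgAAVS1 were 0.56 ± 0.23 in TASOR, 0.997 ± 0.23 in TASOR2 (just under the limit), 1.04 ± 0.22 in MPP8 and 1.20 ± 0.22 in PPHLN1. Its MPP8 and PPHLN1 calls were lost against untransduced cells (0.73 and 0.89), with centring (0.88 and 0.98) and with quantile normalization (0.86 and 0.97).

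The other 8 genes of the run, ZNF283, ZNF45, ZNF230, ZNF224, ZNF225, ZNF226, ZNF227 and ZNF180, passed no call. Their differences from sgAAVS1 ran from 0.01 to 0.45 in TASOR, 0.37 to 0.98 in TASOR2, 0.48 to 0.82 in MPP8 and 0.52 to 0.98 in PPHLN1. ZNF45 had means of 5.39 in untransduced cells, 5.37 in sgAAVS1, 5.58 in TASOR, 6.15 in TASOR2, 5.86 in MPP8 and 5.91 in PPHLN1. TASOR2 was its highest group, with differences of 0.20 ± 0.15, 0.77 ± 0.14, 0.48 ± 0.15 and 0.54 ± 0.15 in TASOR, TASOR2, MPP8 and PPHLN1. With each group centred on its median the TASOR difference of ZNF45 was -0.0019, and the MPP8 and PPHLN1 differences were 0.33 and 0.32. ZNF224, a KRAB zinc finger repressor, had means of 5.21, 5.23, 5.39, 5.95, 6.05 and 6.17 in untransduced, sgAAVS1, TASOR, TASOR2, MPP8 and PPHLN1.

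Per kb of its longest transcript, the untransduced mean of the 12 called genes had a median of 0.90 (range -4.32 to 2.92) on the log2 scale, and that of the 8 uncalled genes a median of 2.73 (1.60 to 3.82). Over the 20 genes, the rank correlation (Spearman's rho) between this level and the difference from sgAAVS1 was -0.81 in TASOR, -0.74 in TASOR2, -0.81 in MPP8 and -0.82 in PPHLN1. These are descriptions. The points share the libraries, neighbouring genes share reads, and a gene with few reads has a wider counting error. The part of level in the result was not tested.

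**Figure D3:**
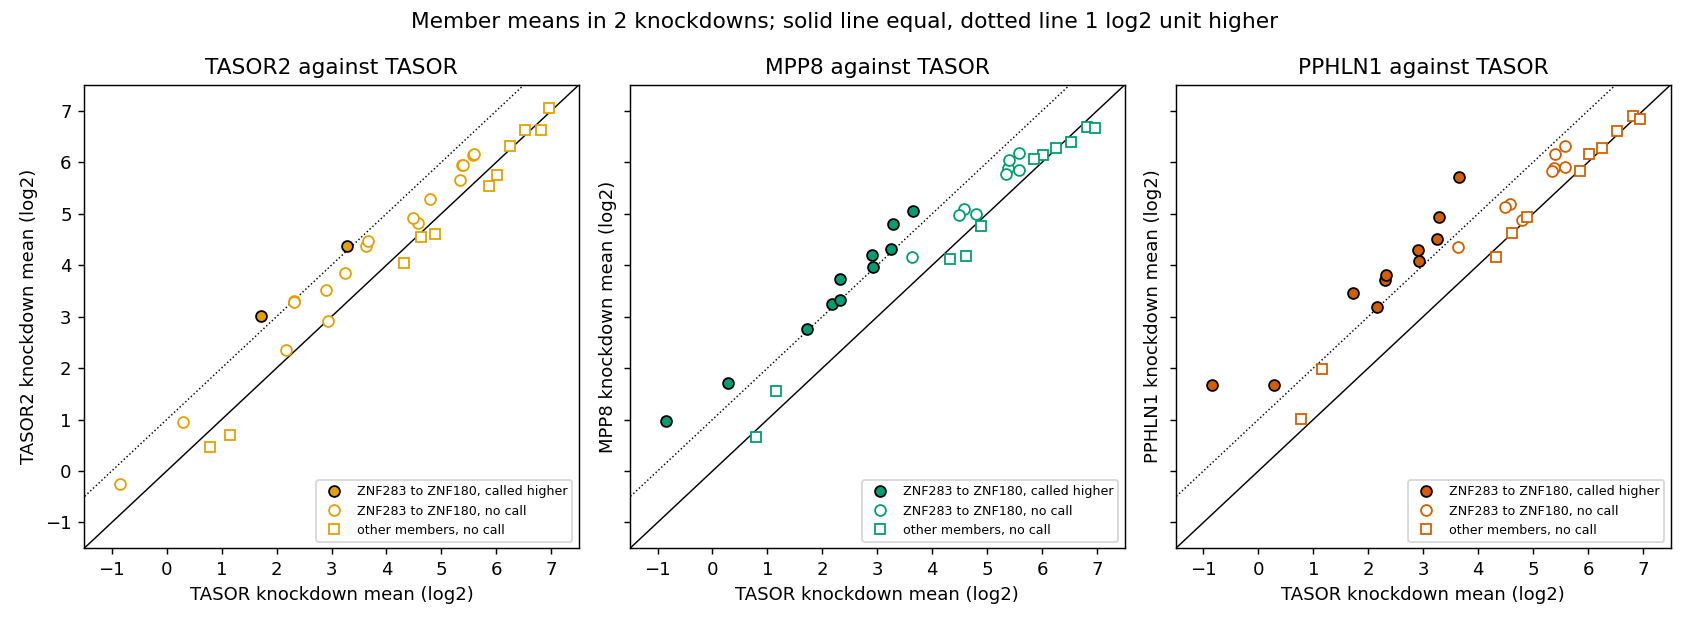
Mean of each tested member in the TASOR2, MPP8 and PPHLN1 groups, each in its own panel, plotted against its mean in the TASOR group, with called genes marked. Against TASOR, the MPP8 and PPHLN1 groups were each called higher for 11 genes, all between ZNF283 and ZNF180.

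The knockdowns were also compared with each other, which leaves the controls out. TASOR2 minus TASOR called 2 of 31 members higher, ZNF223 (1.08 ± 0.30) and ZNF112 (1.29 ± 0.52), against a background of 1.31%. MPP8 minus TASOR called 11 higher, against a background of 0.761%, and PPHLN1 minus TASOR called 11 higher, against a background of 1.33%. These 11 were the same genes, the 12 named above without ZNF234. The largest PPHLN1 minus TASOR differences were 2.51 ± 1.20 for ZNF233 and 2.05 ± 0.24 for ZNF229. Of the 4 knockdowns, that of TASOR left the smallest share of its target RNA, 6.56%, and had the smallest median in the run. Whether the loss of the target and this median are linked was not tested.

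MPP8 minus TASOR2 called 2 members, ZNF221 (1.07 ± 0.37) and ZNF233 (1.23 ± 1.17), against a background of 3.75%. PPHLN1 minus TASOR2 called 4, ZNF221 (1.18 ± 0.37), ZNF233 (1.92 ± 1.11), ZNF229 (1.23 ± 0.21) and, outside the run, ZNF541, against a background of 4.87%. PPHLN1 minus MPP8 called 0, against a background of 0.828%. Its differences were 0.70 ± 0.41 for ZNF112 and 0.66 ± 0.18 for ZNF229, whose intervals left out 0. No member was called lower in any of these 6 comparisons, against backgrounds of 5.11% for TASOR2 minus TASOR, 1.0% for MPP8 minus TASOR, 0.943% for PPHLN1 minus TASOR, 1.47% for MPP8 minus TASOR2, 1.45% for PPHLN1 minus TASOR2 and 0.554% for PPHLN1 minus MPP8. Run medians were 0.58 for TASOR2 minus TASOR, 1.02 for MPP8 minus TASOR, 1.09 for PPHLN1 minus TASOR, 0.20 for MPP8 minus TASOR2, 0.43 for PPHLN1 minus TASOR2 and 0.11 for PPHLN1 minus MPP8.

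With untransduced cells as the control, members called higher numbered 1 in TASOR (background 1.17%), 3 in TASOR2 (1.28%), 9 in MPP8 (1.16%) and 10 in PPHLN1 (1.52%). None was called lower, against backgrounds of 0.779% in TASOR, 3.16% in TASOR2, 0.937% in MPP8 and 0.761% in PPHLN1. Called against both controls were 0 in TASOR (background 0.505%), 3 in TASOR2 (0.968%), 9 in MPP8 (0.663%) and 10 in PPHLN1 (1.18%). The 3 TASOR2 genes were ZNF284, ZNF112 and ZNF285. The TASOR2 count thus fell from 7 to 3 with the other control.

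Transcripts of the run were AT-rich, with a median GC content of 42.3%, against 57.8% in the members outside the run and 49.4% over all genes with a value. The median was also 42.3% in the other numbered zinc finger genes of chromosome 19, and 45.0% in those of other chromosomes. In TASOR2 the difference from sgAAVS1 fell with GC over 8847 genes with a mean above 5 (Spearman's rho -0.71), and untransduced minus sgAAVS1 did so too (-0.55). In TASOR, MPP8 and PPHLN1 rho was 0.17, 0.31 and 0.33. With this trend removed, members called higher numbered 6 in TASOR2, 12 in MPP8 and 13 in PPHLN1.

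Of the 20 genes of the run, 6 overlap another member. ZNF222, ZNF223 and ZNF284 do so on the same strand, and ZNF227, ZNF235 and ZNF233 on opposite strands. Leaving these 6 out, an alternative chosen after seeing the data, left 4 of 25 members called in TASOR2, 7 in MPP8 and 7 in PPHLN1. Of the 12 called genes, ZNF221 and ZNF234 overlap no other feature of the table.

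The 11 tested members outside the run had differences from sgAAVS1 of 0.13 to 0.57 in TASOR, -0.32 to 0.41 in TASOR2, -0.02 to 0.53 in MPP8 and 0.10 to 0.97 in PPHLN1. The highest in PPHLN1 was ZNF541, a germ cell gene, with means of 1.63 in untransduced cells, 1.02 in sgAAVS1, 1.15 in TASOR, 0.70 in TASOR2, 1.56 in MPP8 and 1.99 in PPHLN1. Its untransduced mean lay above the MPP8 one. ZNF546, the first gene inside the interval, had its highest mean in TASOR, 4.33, against 3.62 in untransduced cells, 3.76 in sgAAVS1, 4.04 in TASOR2, 4.11 in MPP8 and 4.16 in PPHLN1. ZNF473, which takes part in histone pre-mRNA processing, had means of 6.77, 6.64, 6.95, 7.05, 6.66 and 6.84 in untransduced, sgAAVS1, TASOR, TASOR2, MPP8 and PPHLN1. ZNF780B, ZNF780A, ZNF574, ZNF526, ZNF575, ZNF576, ZNF428 and ZNF296 were the others. ZNF114 had means of -2.96 to -2.70 in the 6 groups, at most a few reads, and was not tested.

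At the edges of the interval, ZNF573 (start 37735833) was the last zinc finger gene before it, with differences from sgAAVS1 of 0.00 in TASOR, 0.11 in TASOR2, 0.20 in MPP8 and 0.17 in PPHLN1. ZNF546 (start 39984134), the first inside, had 0.57, 0.28, 0.36 and 0.41. ZNF473 (start 50025714), the last inside, had 0.31, 0.41, 0.02 and 0.20, and ZNF175 (start 51571298), the first after it, had 0.16, 0.07, 0.05 and 0.11.

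Zinc finger genes elsewhere gave smaller shares of calls in TASOR2, MPP8 and PPHLN1, and the difference in share was not tested. Of 200 tested numbered zinc finger genes elsewhere on chromosome 19, 8 were called higher in TASOR, 24 in TASOR2, 30 in MPP8 and 43 in PPHLN1, and 4 in untransduced cells. Of 230 on other chromosomes, 7, 8, 5 and 6 were called higher in the 4 knockdowns. The backgrounds over all tested genes were 1.86%, 2.13%, 1.57% and 2.76% in the same order. The shares of the 200 chromosome 19 genes lay above these in all 4 knockdowns, so higher calls were not particular to the run. In TASOR their share also lay above that of the members, 0%. With so few members, 0% cannot be told from this share or from the background of 1.86%. These 200 genes were pooled and not split into runs, so whether another run reaches the share of this one was not tested. Of 288 tested genes of the interval that are neither members nor in the span of the run, 2, 2, 0 and 6 were called higher, and 9 were called lower in TASOR2.

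**Figure D4:**
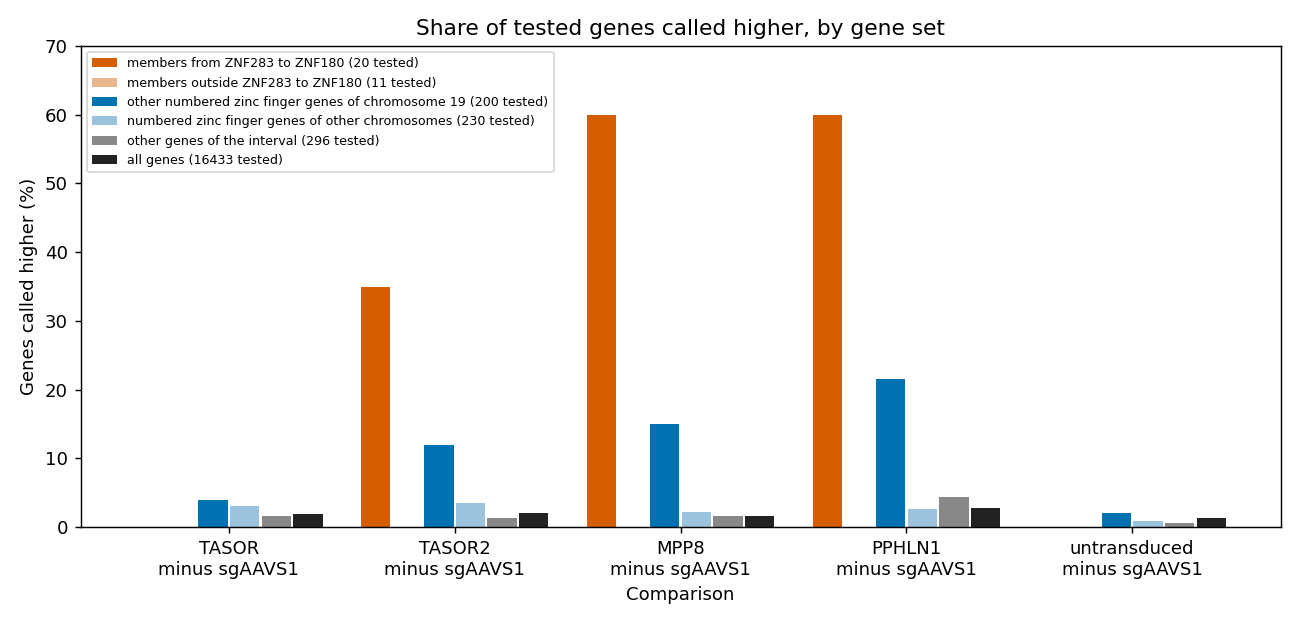
Percent of tested genes called higher than sgAAVS1 in each comparison, for the run from ZNF283 to ZNF180, the other members and the comparison sets. The run stands at 35% in TASOR2 and 60% in MPP8 and PPHLN1, and at 0% in TASOR. Its limits were set by a distance chosen with the values known.

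The span of the run also holds 8 other tested features, of which 7 overlap a member. TASOR called 3 of them, TASOR2 2, MPP8 5 and PPHLN1 7. The feature AC084219.4, on the minus strand opposite ZNF224 and ZNF225, had no reads in untransduced cells and means of -2.73 in sgAAVS1 (under the 3-count limit), 0.70 in TASOR, -0.89 in TASOR2, 1.25 in MPP8 and 1.5 in PPHLN1. It was called in TASOR (3.44 ± 0.92), MPP8 (3.98 ± 0.88) and PPHLN1 (4.24 ± 0.84), but not in TASOR2 (1.84 ± 1.35). RP11-15A1.2, opposite ZNF45, was called in the same 3 groups, at 1.85 ± 1.19, 3.08 ± 1.08 and 2.96 ± 1.09, against -0.22 ± 1.54 in TASOR2. RP11-15A1.7 was called in TASOR (2.52 ± 1.11), MPP8 (2.54 ± 1.15) and PPHLN1 (3.36 ± 1.03). Against untransduced cells RP11-15A1.7 was called in PPHLN1 (1.88 ± 1.09) but not in TASOR (1.05 ± 1.17) or MPP8 (1.06 ± 1.20). RP11-15A1.2 was not called in TASOR against that control (0.95 ± 1.16). AC084219.4 alone of the 8 was called in TASOR against both controls. In AC084219.4, RP11-15A1.2, RP11-15A1.7, RP11-15A1.8 and CTC-512J12.6 both controls lay below 0, so these features were tested only through knockdown groups in which they are high, and their calls support no comparison with the zinc finger genes.

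**Figure D5:**
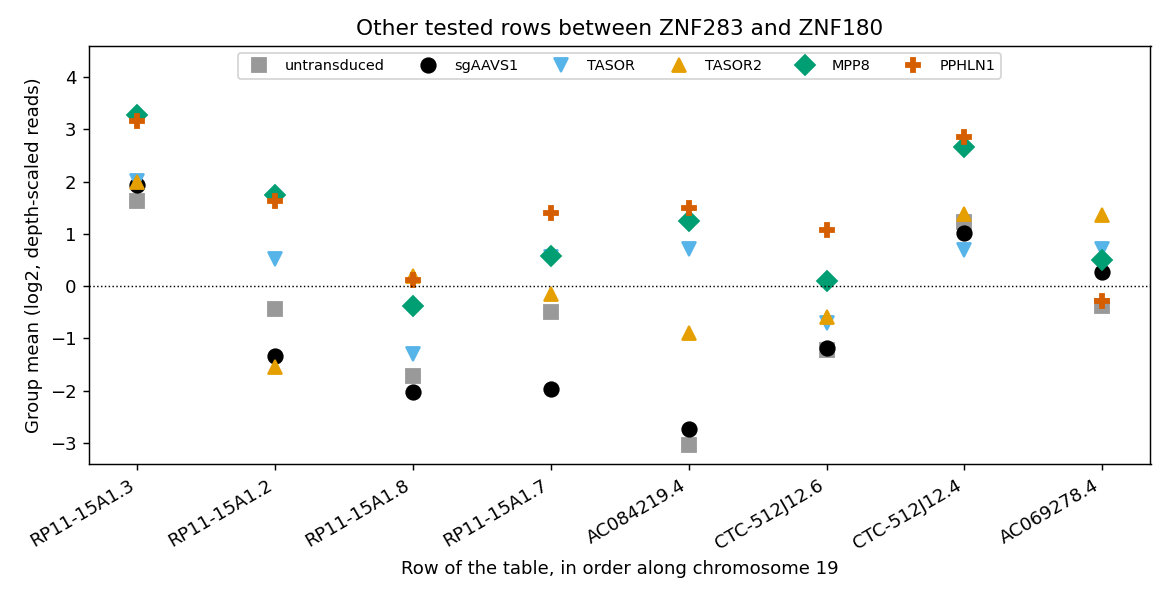
Group means in log2 RPM for the 8 tested features of the span that are not numbered zinc finger genes. AC084219.4, RP11-15A1.2 and RP11-15A1.7 are higher in TASOR, MPP8 and PPHLN1 than in sgAAVS1.

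RP11-15A1.3, on the strand of ZNF404, was called in MPP8 (1.34 ± 0.43) and PPHLN1 (1.23 ± 0.44), with 0.08 in TASOR and 0.05 in TASOR2. CTC-512J12.4 was also called in MPP8 (1.64 ± 0.59) and PPHLN1 (1.84 ± 0.57). CTC-512J12.6 was called in PPHLN1 (2.28 ± 1.14), RP11-15A1.8 in TASOR2 (2.21 ± 1.21) and PPHLN1 (2.14 ± 1.23), and AC069278.4 in TASOR2 (1.09 ± 0.84). Reads of features that overlap on opposite strands may be shared where strand was not used.

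Genes of the HUSH and H3K9 methylation machinery, a list of 23 tested genes, gave 0 higher calls and 1 lower call in each knockdown, the lower one being the targeted gene. Their median differences from sgAAVS1 were 0.16 in TASOR, 0.10 in TASOR2, 0.14 in MPP8 and 0.17 in PPHLN1. ZNF274, a zinc finger protein known to bind the 3′ ends of zinc finger genes and recruit SETDB1, had means between 7.09 and 7.47 in the 6 groups.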

How the data were processed

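Per the labels, RNA of K562 dCas9-KRAB cells was sequenced 7 days after transduction. Reads were trimmed with cutadapt and aligned with Bowtie2 to hg38, per the submitters' processing notes. For the counting tool, annotation and strand setting, no statement was given in the sources used here. In the table, the authors deposited the untransduced mean on a log2 scale and, for each other group, a ratio to that log2 value. Multiplying the ratio by the untransduced value gave each group's log2 mean, and steps between low values matched whole reads scaled to depth (RPM) in means of 3 (sgAAVS1) or 2 libraries. Genes with a mean above 0 in at least 1 of 6 groups were tested, after 87 repeated symbols were dropped. Since the table holds group means, the planned limma test was replaced by the rule of size and counting interval. The rule was checked on simulated counts with Poisson error only, the error that the interval assumes. That check could not cover variation between cultures or guides. Named in full were members called in at least 1 knockdown, plus ZNF45, ZNF112 and ZNF233. Members, lists and distances were chosen with earlier results of these data known. Alternatives changed the control, scaling, filter, size limit, added constant, GC trend and overlapping members. Protein sequences were not analysed here. GENCODE release 29 gave transcript lengths and GC, and RefSeq gave promoters. Python 3.11.15, numpy 2.4.6, pandas 2.3.3, scipy 1.17.1 and matplotlib 3.10.9 were used.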

Additional observations from a re-analysis of the deposited data

How the results depend on the processing

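Counts of members called higher moved by over 1.5 times under these settings. With untransduced cells as the control, they were 1 in TASOR and 3 in TASOR2. At 1.5-fold they were 2 in TASOR, 17 in TASOR2, 2 in untransduced cells, 8 for TASOR2 minus TASOR, 17 for PPHLN1 minus TASOR, 5 for MPP8 minus TASOR2, 7 for PPHLN1 minus TASOR2 and 2 for PPHLN1 minus MPP8. Without members that overlap another member, they were 4 in TASOR2, 7 in MPP8, 7 in PPHLN1, 1 for TASOR2 minus TASOR, 6 for MPP8 minus TASOR, 6 for PPHLN1 minus TASOR and 1 for MPP8 minus TASOR2, since fewer genes were counted. Median centring gave 4 for TASOR2 minus TASOR and 1 for MPP8 minus TASOR2. Quantile normalization gave 6, 0 and 2 for TASOR2 minus TASOR, MPP8 minus TASOR2 and PPHLN1 minus TASOR2. A filter 2 log2 units higher gave 1 for MPP8 minus TASOR2 and 2 for PPHLN1 minus TASOR2. With 0.5 added, MPP8 minus TASOR2 gave 1, and with the GC trend removed TASOR2 minus TASOR gave 1. The other 66 of 92 such counts stayed within 1.5 times, all 92 counts called lower did, and no called difference of a named member changed sign. Uncalled TASOR differences did so for ZNF222 (-0.35), ZNF229 (-0.26), ZNF223 (-0.12), ZNF155 (-0.096) and ZNF235 (-0.015) with untransduced cells as the control, for ZNF45 (-0.0019) with median centring, and for ZNF223 (-0.052) and ZNF222 (-0.0054) with quantile normalization. The cause of the other shifts was not tested. The median of all genes was 0.16, 0.07, 0.12 and 0.17 above sgAAVS1 in TASOR, TASOR2, MPP8 and PPHLN1, and member differences may be read relative to it. No paired analysis was possible because the table holds 1 mean per group, and leaving out each replicate could not be run for the same reason. Counting intervals of genes near 0 on the log2 scale are wide, so uncalled differences there were not detectable at this depth.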
